A study of Mus musculus with 4 samples.

Results

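Costimulatory and checkpoint molecules are the surface proteins through which an antigen-presenting cell and a T cell promote or restrain each other's activation. The 10 genes described here were listed by name from that group, with no threshold on a measured value but with earlier results of these data known, and all 10 were found among the 20599 gene symbols of the deposited tables. They comprise 6 ligands, Pdcd1lg2 (PD-L2), Cd274 (PD-L1), Cd80, Cd86, Icosl and Cd200, and 4 receptors, Ctla4, Pdcd1 (PD-1), Btla and Havcr1 (TIM-1). Expression was measured by bulk RNA-Seq in 4 libraries from wild-type C57BL/6 mice, 2 of peritoneal B1a cells and 2 of splenic follicular B cells, called B2 cells. The mice served as wild-type controls in a study of Dnmt3a deletion, and the Dnmt3a-deficient libraries were not analyzed here. The methods name C57BL/6J mice as the controls and, for RNA-Seq, littermates, so the exact genotype of these controls is not settled. B1a cells were sorted as CD23- IgM+ CD5+ B cells and follicular cells as IgD hi IgM lo CD21+ B cells. The labels give an age of 4 weeks for every library, whereas the methods give an older age for the follicular cells than for the B1a cells. In the comparison of B1a with B2 cells, the effects of cell type, of tissue and of any difference in age cannot be told apart. By the methods, the wild-type cells of each type came from 2 mice, so the replicates are taken as separate animals.

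A naive T cell needs a signal through CD28 in addition to its antigen receptor, and CD80 and CD86 are the ligands that give it. CTLA-4 binds the same ligands more tightly than CD28 and removes them from the presenting cell, PD-1 restrains T cells when it meets PD-L1 or PD-L2, and ICOS ligand sustains helper T cells in follicles. BTLA, on B and T cells, is an inhibitory receptor for the TNF receptor family member HVEM, CD200 restrains myeloid cells through its receptor, and TIM-1 marks part of the regulatory B cells. B1a cells are the self-renewing B cells of the body cavities that make natural antibody, and surface PD-L2 is a known property of much of this population, whereas follicular B2 cells recirculate and present antigen to helper T cells.

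The libraries held between 11032732 and 18588623 expected counts, of which 3 counts, the floor used here, amount to 0.157 to 0.27 CPM (counts relative to library size, here adjusted by TMM for library composition). The B1a replicates correlated with each other at r = 0.836 over log2 CPM of all tested genes and the B2 replicates at r = 0.966, while pairs of 1 B1a and 1 B2 library lay between 0.788 and 0.858. The 6 B cell markers summed to 6933.4 and 6205.4 CPM in the B1a replicates and 6157.5 and 6060.4 CPM in the B2 replicates. Cd5, part of the B1a sorting gate, had 15.9 and 22.4 CPM in B1a cells against 5.47 and 2.25 CPM in B2 cells, and the 5 B1a markers summed to 1181.5 and 893.3 CPM against 75.8 and 75.3 CPM. Fcer2a, which encodes the CD23 that the B1a gate excluded, stood at 63.7 and 60.9 CPM in B1a cells and 933.8 and 896.1 CPM in B2 cells.

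The promoters of the 5 genes that differed between the cell types are shown because they differ in their content of CpG, the dinucleotide at which DNA methylation is set in mammals. Each sequence holds the 250 bases before and the 50 bases after an annotated start in RefSeq on GRCm38.p6. For Cd274 and Cd80 the start used lies inside the gene, whose span begins further upstream, at 29362107 and 38457430. Sequences are given 5′ to 3′ on the strand of the gene, with every CpG in capitals. All lie on the plus strand, at chr19:29410669-29410968 for Pdcd1lg2, chr19:29367188-29367487 for Cd274, chr16:38458683-38458982 for Cd80, chr1:60908775-60909074 for Ctla4 and chr10:78069118-78069417 for Icosl.
Pdcd1lg2: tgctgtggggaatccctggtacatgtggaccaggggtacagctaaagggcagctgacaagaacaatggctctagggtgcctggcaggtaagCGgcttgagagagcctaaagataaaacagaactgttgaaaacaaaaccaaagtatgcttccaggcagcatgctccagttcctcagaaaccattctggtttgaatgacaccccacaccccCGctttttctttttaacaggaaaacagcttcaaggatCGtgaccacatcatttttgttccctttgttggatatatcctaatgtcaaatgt
Cd274: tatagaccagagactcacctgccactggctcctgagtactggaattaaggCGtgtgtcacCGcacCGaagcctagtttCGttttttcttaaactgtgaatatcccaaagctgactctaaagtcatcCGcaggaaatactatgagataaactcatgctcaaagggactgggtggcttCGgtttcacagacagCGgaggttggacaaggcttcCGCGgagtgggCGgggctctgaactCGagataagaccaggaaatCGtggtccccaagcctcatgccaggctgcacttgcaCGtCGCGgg
Cd80: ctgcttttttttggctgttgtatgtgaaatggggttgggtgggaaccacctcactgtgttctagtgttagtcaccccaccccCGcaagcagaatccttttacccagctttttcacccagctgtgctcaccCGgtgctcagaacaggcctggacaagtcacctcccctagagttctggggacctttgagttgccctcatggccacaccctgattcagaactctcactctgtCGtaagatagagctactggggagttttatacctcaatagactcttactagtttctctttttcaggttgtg
Ctla4: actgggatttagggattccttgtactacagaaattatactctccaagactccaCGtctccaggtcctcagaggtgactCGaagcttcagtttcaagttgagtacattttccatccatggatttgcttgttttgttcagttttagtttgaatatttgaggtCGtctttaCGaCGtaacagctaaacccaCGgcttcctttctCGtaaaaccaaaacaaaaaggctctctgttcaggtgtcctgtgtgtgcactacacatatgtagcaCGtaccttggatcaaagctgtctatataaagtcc
Icosl: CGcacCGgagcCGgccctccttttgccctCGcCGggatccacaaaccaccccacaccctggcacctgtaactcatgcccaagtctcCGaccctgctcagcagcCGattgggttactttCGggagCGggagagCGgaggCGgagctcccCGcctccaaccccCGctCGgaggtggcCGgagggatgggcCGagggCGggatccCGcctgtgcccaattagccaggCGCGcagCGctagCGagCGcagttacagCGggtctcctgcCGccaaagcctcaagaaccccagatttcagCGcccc
Icosl had the most CpGs of these windows, 26. This was more than in 83.1% of the 32851 promoter windows of the same length that were compared. Repeated windows and those of a single chromosome, which holds none of the genes described here, were left out of the comparison. Cd274 had 15 CpGs, more than in 65.4% of windows, and Ctla4 had 8, more than in 51.4%. Cd80 and Pdcd1lg2 each had 3, more than in 23.3% of windows, where the median over all windows was 7. The PD-1 ligands are neighbours on chromosome 19 with 22.8 kb between them, and the windows shown for them thus differ in CpG content. Methylation was not measured in the files used here.

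The letters of 3 short motifs were searched on both strands of the windows. The letters TGANTCA, used here for AP-1 with any base allowed at N, were present in 7.81% of all windows. In Cd80 they were found as TGATTCA at position -42 from the start used, a match of letters and not a site shown to be bound. TGGAAA, the core of NFAT sites present in 21.4% of windows, was found in Ctla4 at position -144 on the minus strand. The letters GAGGAA of PU.1, present in 28.3% of windows, were found in Pdcd1lg2 at position -82 on the minus strand. The Cd274 and Icosl windows held none of these letters. Windows were available for 9 of the 10 genes, without Cd86.

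Of the 10 genes, 9 had enough counts for a test and 5 of these differed between B1a and B2 cells by edgeR's quasi-likelihood test at an adjusted p threshold of 0.05. Pdcd1lg2, Cd274, Cd80 and Ctla4 were higher in B1a cells and Icosl was higher in B2 cells. Over all 12078 tested genes the same call was made for 5.74%, 4.24% in favour of B1a cells and 1.5% in favour of B2 cells, or 512 against 181 genes. With TPM values in place of counts, limma on log2(TPM + 1) divided the calls over all genes more evenly, 266 against 233, and moved the median log2 fold change of all genes from -0.03 to -0.295, without turning the direction of any of the 9. In all 9 tested genes the values of the B1a replicates lay on one side of those of the B2 replicates on the CPM scale, as they did in 54.3% of all tested genes. B1a cells were above B2 cells in 5 of the 9, against 25.3% of all tested genes, and below them in 4, against 29.1%. The members' median log2 fold change, B1a over B2, was 0.62, and without Ctla4, the gene with the largest difference, it was -0.10. An exact permutation test of a single gene cannot fall below p = 0.33 with 2 libraries against 2, so the tests rest on the spread shared across genes. In bulk RNA, fewer cells with a transcript and less of it in each cell cannot be told apart.

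**Figure D1:**
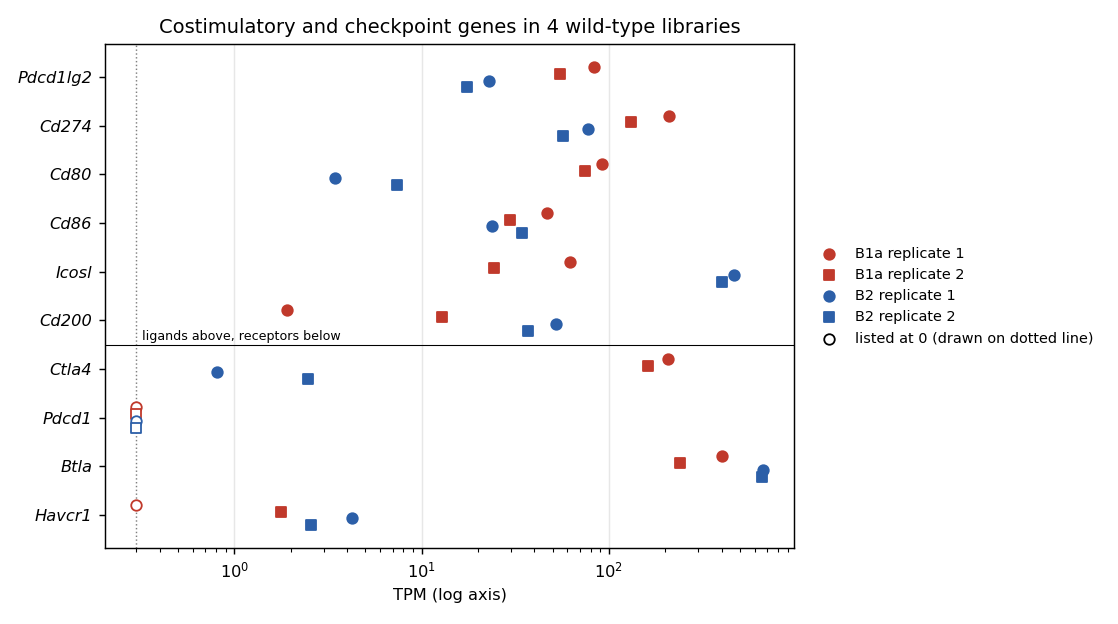
TPM of the 10 genes in each library on a log axis, with B1a replicates in red, B2 replicates in blue and values listed at 0 as open symbols on the dotted line. Ctla4 is at 206.0 and 162.2 TPM in B1a cells against 0.81 and 2.48 TPM in B2 cells, Icosl shows the opposite order, and Pdcd1 is at 0 in all 4 libraries.

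Both PD-1 ligands were higher in B1a cells. Pdcd1lg2 (chromosome 19, 29410919 to 29472927, GRCm38.p6) had 82.9 and 55.0 TPM in the B1a replicates and 23.0 and 17.5 TPM in the B2 replicates. The lower B1a library thus stood above the higher B2 library, and the fold change was 4.03 (95% confidence interval 2.44 to 6.65, log2 2.01, SE 0.29, edgeR adjusted p = 0.0178). Cd274, whose PD-L1 protein is made by many cell types on stimulation with interferon, lies upstream on the same chromosome (29362107 to 29388095). It had 209.0 and 130.7 TPM in B1a cells and 77.3 and 56.6 TPM in B2 cells, again without overlap. Its fold change was 2.99 (95% confidence interval 1.90 to 4.72, log2 1.58, SE 0.27, edgeR adjusted p = 0.028).

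PD-L1 transcript exceeded PD-L2 transcript in every library. The TPM ratio of Cd274 to Pdcd1lg2 was 2.52 and 2.38 in B1a cells and 3.37 and 3.24 in B2 cells, and the shift of this ratio was not tested. In B1a replicate 1 both ligands were higher than in B1a replicate 2, and in B2 replicate 1 both were higher than in B2 replicate 2. On the TPM scale neither gene passed the threshold, with adjusted p = 0.0584 for Pdcd1lg2 and 0.0786 for Cd274 by limma on log2(TPM + 1), and with B2 means of 20.2 ± 3.89 TPM (SD, n = 2) for Pdcd1lg2 and 67.0 ± 14.6 TPM (SD, n = 2) for Cd274 neither was near 0 in B2 cells. Their receptor Pdcd1 was listed at 0 counts in all 4 libraries, which at the floor of 3 counts allows up to 0.27 CPM in a B1a library and 0.26 CPM in a B2 library.

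Of the ligands of CD28, Cd80 was higher in B1a cells and Cd86 did not pass the threshold. Cd80 (chromosome 16, 38457430 to 38495958) had 92.0 and 74.6 TPM in B1a cells and 3.46 and 7.41 TPM in B2 cells. The groups were separated by a fold change of 17.8 (95% confidence interval 7.79 to 40.5, log2 4.15, SE 0.48, edgeR adjusted p = 0.00866), and the B2 values rested on 23.9 and 86.3 expected counts. Without B2 replicate 2 the log2 fold change was 4.83 and without B2 replicate 1 it was 3.72. Cd86, 1791.3 kb away on the same chromosome, had 46.7 and 29.6 TPM in B1a cells and 23.9 and 34.3 TPM in B2 cells, so that the groups overlapped on this scale. Its log2 fold change was 0.62 with a 95% confidence interval from -0.28 to 1.53 (SE 0.37, edgeR adjusted p = 0.419). A difference of up to 2.89-fold in favour of B1a cells lies within that interval.

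The ratio of these ligands lay on opposite sides of 1 in the cell types, as a description without a test. Cd80 stood at 1.97 and 2.52 times the TPM of Cd86 in the B1a replicates, whereas Cd86 stood at 6.90 and 4.63 times the TPM of Cd80 in the B2 replicates. CD86 is the ligand that resting B cells carry at a low level, and CD80 is induced later on activation and is found on memory B cells.

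Macrophages share the peritoneal cavity with B1a cells and also carry PD-L1, PD-L2 and CD80. Their markers had a higher sum in B1a cells but did not share 1 direction. The 8 macrophage markers summed to 192.0 and 229.7 CPM in B1a cells and 60.7 and 63.4 CPM in B2 cells, with 6 of the 8 above 3 counts in both B1a libraries and 5 in both B2 libraries. Lyz2, named after its values were seen as the marker that differed by the test, gave 127.4 and 135.6 CPM of the B1a sums. Among the defining markers, Csf1r had 16.9 and 21.9 CPM in B1a cells against 21.2 and 18.4 CPM in B2 cells. Adgre1 had 27.7 and 39.0 CPM against 8.24 and 11.9 CPM (edgeR adjusted p = 0.0891). The other macrophage markers are given for completeness after their values were seen. Cd68 had 16.3 and 22.1 CPM in B1a cells against 8.59 and 3.35 CPM in B2 cells (edgeR adjusted p = 0.237). Cd14 had 1.7 and 2.79 CPM against 0.434 and 0 CPM. Mertk had 1.96 and 7.78 CPM against 4.45 and 2.61 CPM, and Timd4 had 0 and 0.54 CPM against 0.52 and 0 CPM. Fcgr1 was at 0 in both B1a libraries and at 0.434 and 0 CPM in the B2 libraries. The 6 dendritic cell markers summed to 20.0 and 34.4 CPM in B1a cells and to 47.1 and 34.7 CPM in B2 cells, and they did not share 1 direction. Itgax had 1.43 and 1.35 CPM in B1a cells against 3.78 and 6.80 CPM in B2 cells. Zbtb46, named after its values were seen, went the other way, with 3.59 and 2.07 CPM against 0.954 and 0.418 CPM. Flt3, Xcr1, Clec9a and Siglech overlapped between the cell types. The 4 mast cell markers summed to 41.1 and 13.4 CPM against 1.47 and 0.941 CPM, and the 3 plasma cell markers to 22.4 and 44.5 CPM against 17.6 and 29.4 CPM. Of these, Cma1 (edgeR adjusted p = 0.0499) and Prdm1 (edgeR adjusted p = 0.0346), named after their values were seen, were called higher in B1a cells. The plasma cell marker Sdc1 went the other way, with 0 and 8.27 CPM in B1a cells against 13.4 and 25.2 CPM in B2 cells. The part of these cells in the ligand values was not tested.

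Ctla4 showed the largest difference of the group. The gene (chromosome 1, 60909025 to 60915832), which encodes the inhibitory receptor known mainly from regulatory and activated T cells, had 206.0 and 162.2 TPM in B1a cells and 0.81 and 2.48 TPM in B2 cells. In expected counts this was 1851.01 and 1490.01 against 6 and 30.99. The fold change was 129.8 (95% confidence interval 56.2 to 299.6, log2 7.02, SE 0.49, edgeR adjusted p = 0.00212), and its size depended on the few B2 counts, with a log2 value of 8.14 without B2 replicate 2 and 6.52 without B2 replicate 1. The deposited tables list Ctla4 in 3 entries with the same transcripts, which were summed, and the largest of these held at least 92.8% of the gene's counts in each library.

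Of the 8 T cell markers, 7 were tested and 1 passed the threshold, Cd2, which mouse B cells also express and which had 558.7 and 491.8 CPM in B1a cells against 137.8 and 183.7 CPM in B2 cells. The other CD28 family receptors of the locus, both typical of T cells and named here after their values were seen, were at 0 counts in both B1a libraries: Cd28, 135.7 kb before Ctla4, had 1.39 and 3.78 CPM in B2 cells, and Icos, 44.9 kb after it, had 0.434 and 1.17 CPM. Among the defining markers, Cd3e had 2.60 and 0.899 CPM in B1a cells against 3.47 and 2.69 CPM in B2 cells, and Cd4 was at 0 in both B1a libraries against 3.21 and 3.24 CPM. The other markers, given for completeness after their values were seen, did not share 1 direction. Lck had 56.5 and 45.1 CPM in B1a cells against 44.5 and 39.7 CPM in B2 cells, and Cd3d had 14.6 and 18.3 CPM against 15.7 and 15.4 CPM. Cd3g had 10.4 and 0.18 CPM in B1a cells against 0.867 and 2.06 CPM in B2 cells, and Cd8a had 23.9 and 4.31 CPM against 15.0 and 16.2 CPM, so both were highest in B1a replicate 1 and lowest in B1a replicate 2. On the TPM scale Ctla4 stood at 46.8 and 108.9 times Cd3e in the B1a replicates and at 0.117 and 0.471 times Cd3e in the B2 replicates. Cd3d, at 26.9 and 32.8 TPM in the B1a replicates, was above Cd3e in every library, so the ratio of Ctla4 to Cd3d was lower. Cd3g was above Cd3e in B1a replicate 1 (25.3 TPM) and below it in B1a replicate 2 (0.43 TPM). The part of T cells in the Ctla4 values was not tested. The whole list summed to 666.6 and 560.7 CPM in B1a cells and to 220.8 and 263.0 CPM in B2 cells, with 5 of the 8 above 3 counts in both B1a libraries and 7 in both B2 libraries. Without Cd2, a step chosen after its values were seen, the sums were 108.0 and 68.8 CPM against 82.9 and 79.3 CPM.

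**Figure D2:**
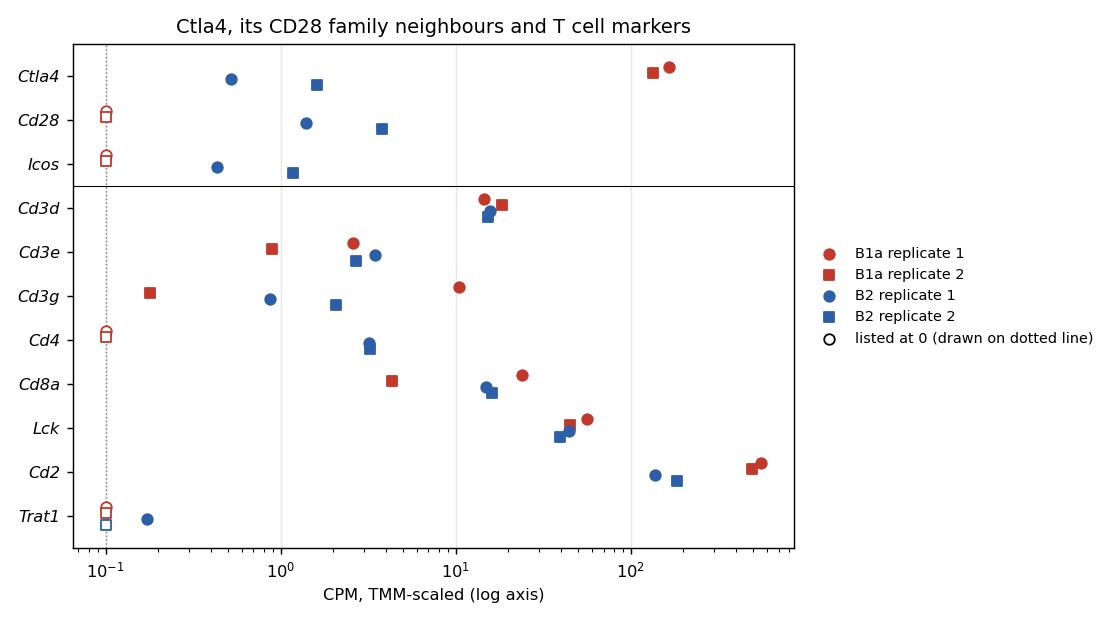
CPM, scaled by TMM, of Ctla4, of its chromosomal neighbours Cd28 and Icos and of 8 T cell markers in each library on a log axis, with B1a replicates in red, B2 replicates in blue and values at 0 as open symbols on the dotted line. Ctla4 is at 165.9 and 134.0 CPM in B1a cells, in which Cd28, Icos, Cd4 and Trat1 are at 0, and of the T cell markers Cd2 is the one that is separated upward by the test.

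Icosl was the member higher in B2 cells. Its product is the ligand through which B cells engage ICOS and so sustain helper T cells in follicles. The gene (chromosome 10, 78069368 to 78079525) had 467.3 and 403.2 TPM in the B2 replicates and 61.6 and 24.2 TPM in the B1a replicates. The fold change was 8.62 in favour of B2 cells (95% confidence interval 4.21 to 17.7, log2 -3.11, SE 0.42, edgeR adjusted p = 0.0137). The B1a replicates differed from each other, and the log2 value was -3.91 without B1a replicate 1 and -2.60 without B1a replicate 2. Set against PD-L1, the TPM ratio of Icosl to Cd274 was 6.04 and 7.12 in B2 cells, and the ratio of Cd274 to Icosl was 3.39 and 5.39 in B1a cells.

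The 3 remaining tested genes, Btla, Cd200 and Havcr1, had lower values in B1a cells and did not pass the threshold. Btla had 400.8 and 239.0 TPM in B1a cells and 662.8 and 654.8 TPM in B2 cells, with a log2 fold change of -0.81 (95% confidence interval -1.37 to -0.24, SE 0.23, edgeR adjusted p = 0.123). The B2 replicates were nearly equal and the B1a replicates were not, and the gene passed the threshold with each replicate left out in turn, at log2 values between -1.20 and -0.49, and under 5 of the 11 other alternatives, among them DESeq2 (adjusted p = 0.00241). The call for Btla therefore depends on the method. Its ligand Tnfrsf14, named after its values were seen, had 44.7 and 80.7 TPM in B1a cells and 63.5 and 96.8 TPM in B2 cells, with no direction that held when single libraries were left out.

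Cd200, 129.2 kb from Btla on chromosome 16, had 1.91 and 12.9 TPM in B1a cells and 52.0 and 36.8 TPM in B2 cells. Its log2 fold change was -2.32 with a 95% confidence interval from -4.45 to -0.20 (SE 0.87, edgeR adjusted p = 0.204). The B1a replicates, at 21 and 145 expected counts, were further apart than the B2 replicates, and the log2 value was -4.30 without B1a replicate 2 and -1.52 without B1a replicate 1, both then past the threshold. Cd200 also passed under 2 of the 11 other alternatives, among them DESeq2 (adjusted p = 0.0391), so its call depends on the method too. Havcr1 was near the floor, with 0 and 16 expected counts in B1a cells and 32.39 and 33.04 in B2 cells, which is 0 and 1.78 TPM against 4.24 and 2.57 TPM (log2 fold change -1.63, SE 2.03, edgeR adjusted p = 0.737). A difference in Havcr1 was not detectable at this depth.

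**Figure D3:**
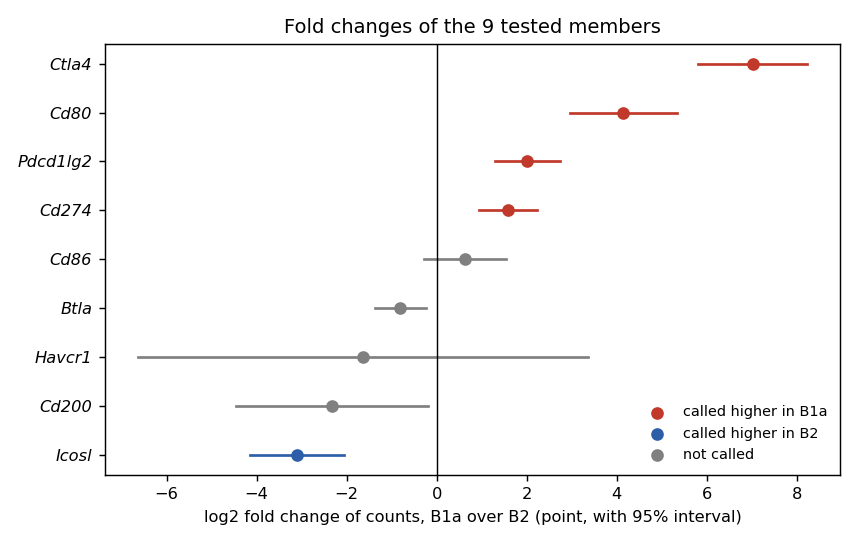
Log2 fold changes of counts, B1a over B2, of the 9 tested genes with 95% confidence intervals, with genes called higher in B1a cells in red, in B2 cells in blue and not called in grey. Ctla4 at 7.02 and Cd80 at 4.15 lie furthest to the B1a side, Icosl at -3.11 lies furthest to the B2 side, and the intervals of Cd86 and Havcr1 include 0.

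Ranked by mean TPM, a scale per transcript length on which genes can be compared, the repertoires of the cell types had the same first gene and then diverged. In B1a cells the order was Btla (319.9 ± 114.4 TPM, SD, n = 2), Ctla4 (184.1 ± 30.9 TPM), Cd274 (169.9 ± 55.4 TPM), Cd80 (83.3 ± 12.3 TPM), Pdcd1lg2 (68.9 ± 19.8 TPM), Icosl (42.9 ± 26.4 TPM), Cd86 (38.2 ± 12.0 TPM), Cd200 (7.41 ± 7.78 TPM) and Havcr1 (0.89 ± 1.26 TPM). The replicate ranges overlapped between the neighbours Ctla4 and Cd274, Cd80 and Pdcd1lg2, Pdcd1lg2 and Icosl, and Icosl and Cd86, whose order is therefore not resolved. In B2 cells the order was Btla (658.8 ± 5.72 TPM, SD, n = 2), Icosl (435.3 ± 45.3 TPM), Cd274 (67.0 ± 14.6 TPM), Cd200 (44.4 ± 10.7 TPM), Cd86 (29.1 ± 7.40 TPM), Pdcd1lg2 (20.2 ± 3.89 TPM), Cd80 (5.44 ± 2.79 TPM), Havcr1 (3.41 ± 1.18 TPM) and Ctla4 (1.65 ± 1.18 TPM), with overlap between the neighbours Cd80 and Havcr1. Ctla4 was thus among the 3 highest in B1a cells and last of the detected members in B2 cells, and Icosl was among the 2 highest in B2 cells.

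Other genes of the pathway were taken from a list of 42 genes in 6 groups, of which 41 were found, 7 under an older symbol, and 29 were tested. Of these, 6 passed the threshold, 4 in favour of B1a cells and 2 in favour of B2 cells, which is 20.7% against 5.74% of all tested genes. The median log2 fold change of the list was 0.51, against -0.03 for all tested genes, and 4 of its genes were at 0 in every library. By group, 2 of 5 tested genes passed among the other checkpoints, 3 of 7 among the genes of turnover and signaling, 1 of 4 among the B7 and CD28 families, and 0 of 5, 0 of 4 and 0 of 4 among partners of the members, the TIM family and the nectin axis.

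Among other ligands and receptors, Sirpa, the inhibitory receptor for CD47 known from myeloid cells, had 154.2 and 114.4 TPM in B1a cells and 15.3 and 16.6 TPM in B2 cells (log2 fold change 3.32, SE 0.21, edgeR adjusted p = 0.00152). Cd47, the "don't eat me" ligand of SIRPα, was also higher in B1a cells, at 404.2 and 387.7 TPM against 237.2 and 268.4 TPM (log2 fold change 0.89, SE 0.14, edgeR adjusted p = 0.0201). Vsir, which encodes the inhibitory B7 family member VISTA, had 65.6 and 93.3 TPM in B1a cells and 13.5 and 14.2 TPM in B2 cells (log2 fold change 2.76, SE 0.25, edgeR adjusted p = 0.00419). SIRPα and VISTA are both abundant on macrophages, whose markers are given above, and the part of macrophages in these values was not tested. Cd48, a ligand of CD244 on lymphocytes and among the most expressed genes of the list, had 156.8 and 183.5 TPM in B1a cells and 211.6 and 231.8 TPM in B2 cells (log2 fold change -0.14, SE 0.20, edgeR adjusted p = 0.779).

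Cd276 and Rgmb, named after their values were seen, did not pass the threshold with edgeR, and their calls depend on the method. Cd276, the B7 family member B7-H3, was at 0 counts in both B1a libraries and at 73.01 and 199 expected counts in the B2 libraries, at least 31.1-fold higher in B2 cells against a floor of 3 counts per library (edgeR adjusted p = 0.0573). It passed under 3 of 10 other alternatives, among them DESeq2 (adjusted p = 7.1e-05). Rgmb, a BMP coreceptor that also binds PD-L2, had 14.3 and 33.0 CPM in B1a cells and 3.12 and 2.35 CPM in B2 cells (log2 fold change 3.11, SE 0.68, edgeR adjusted p = 0.0607), and it passed under 5 of 11, among them DESeq2 (adjusted p = 0.00043).

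Among the genes that set the turnover or signaling of the members, Cmtm6, which keeps PD-L1 at the cell surface, had 241.9 and 193.5 TPM in B1a cells and 156.0 and 155.8 TPM in B2 cells (log2 fold change 0.72, SE 0.15, edgeR adjusted p = 0.0499), and lay at the threshold. Lrba, which protects CTLA-4 from degradation in lysosomes, was lower in B1a cells, at 70.7 and 64.3 TPM in B1a cells and 116.8 and 116.2 TPM in B2 cells (log2 fold change -0.59, SE 0.12, edgeR adjusted p = 0.0433). Ptpn6, the phosphatase SHP-1 that inhibitory receptors recruit, had the highest mean TPM of the list over all libraries, although Cd47 was above it in B1a replicate 2. Ptpn6 had 485.2 and 373.5 TPM in B1a cells and 970.1 and 884.5 TPM in B2 cells (log2 fold change -0.87, SE 0.15, edgeR adjusted p = 0.0283). Marchf1, the ubiquitin ligase that removes CD86 from the surface of presenting cells, had 131.6 and 214.8 TPM in B1a cells and 209.1 and 256.0 TPM in B2 cells, which overlapped (log2 fold change -0.19, SE 0.26, edgeR adjusted p = 0.761).

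**Figure D4:**
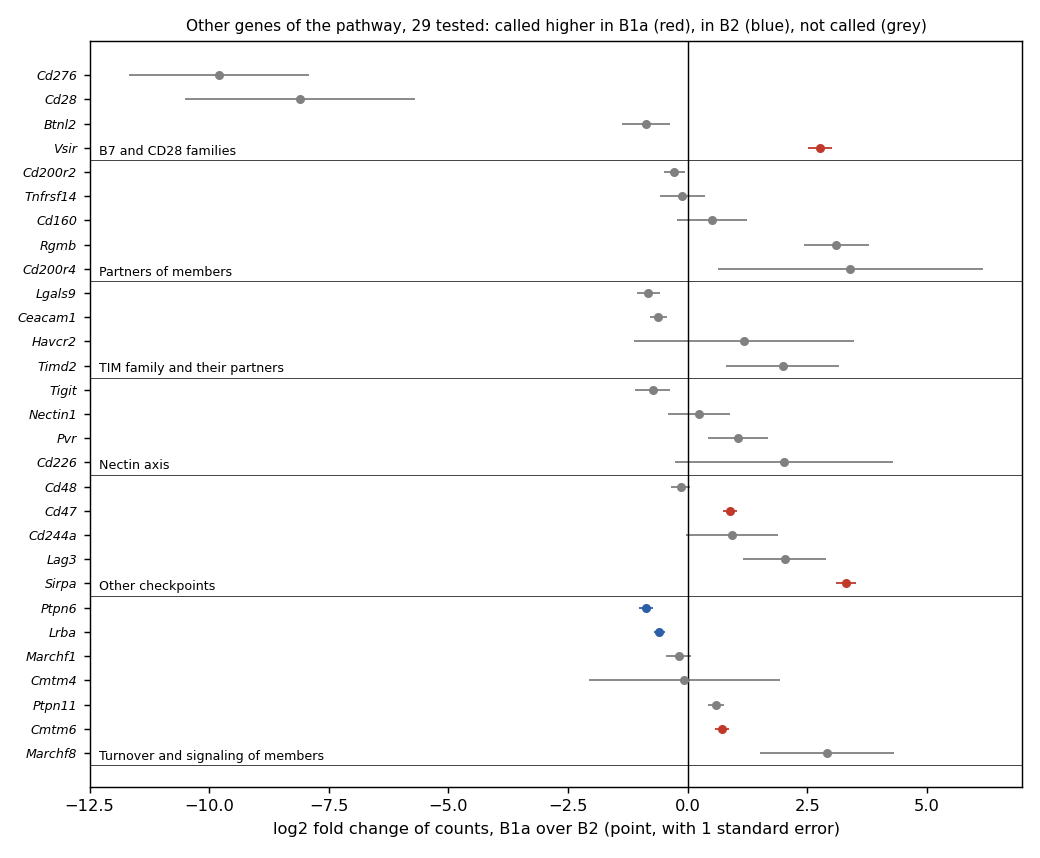
Log2 fold changes of counts, B1a over B2, of the 29 tested genes of the wider list by group, with bars of 1 standard error, red and blue marking genes called higher in B1a or in B2 cells and grey those not called. Sirpa at 3.32 and Vsir at 2.76 are the called genes furthest to the B1a side, and the values of Cd276 and Cd28 at the far left are fitted against B1a libraries at 0 counts, so their size depends on the fit and is no bound.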

How the data were processed

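The 4 wild-type libraries were grouped by the sample labels. For each library the authors used mm10 as the genome and ran RSEM on RefSeq genes, given as version 1.2.29 in the submitters' processing notes and with another number in the methods. The authors deposited unnormalized expected counts per gene entry (21970 entries), with ambiguous reads shared out among entries, and TPM, scaled to the same total in every library. A further deposited signal column, the posterior standard deviation of each count, and FPKM were not used for results. Whether counting used strand is not given in the sources used here, so antisense reads may be included.

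Entries of a symbol were added up and rounded, weakly counted genes were dropped by filterByExpr and libraries were scaled by TMM. The main test was the quasi-likelihood test of edgeR 4.0.16 under R 4.3.3, with no replicate block. P-values were adjusted by Benjamini-Hochberg over 12078 genes, with a threshold of 0.05. Standard errors and 95% confidence intervals were derived from the F statistic. The floor of 3 counts covers counting error only. EBSeq, named in the methods, was not run. Members and lists were chosen with earlier results of these data known. Text genes are all members, the listed genes past the threshold, the 5 listed genes with the highest mean TPM and defining cell type markers, and exceptions are stated. Alternatives were DESeq2 1.42.0, upper quartile factors, limma-voom (limma 3.58.1), other filters, limma on log2 TPM with a pseudocount of 1 or 0.1, a replicate block and each replicate left out. Voom with a weight per cell type and unsummed entries were added after seeing the data.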

Additional observations from a re-analysis of the deposited data

How the results depend on the processing

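None of the members changed direction under any alternative run. Against 693 genes, 5 members and 6 listed genes past the threshold, DESeq2 called 1562, 7 and 8, no filter beyond 1 count 1141, 6 and 8, limma on TPM 499, 3 and 4 with a pseudocount of 1, 359, 3 and 3 with 0.1, and 202, 2 and 2 with 1 and no filter, and voom with a weight per cell type, added after seeing the data, 1415, 6 and 8. Ctla4 and Cd80 passed in every fit that tested them, but requiring 10 counts or more in all libraries removed Ctla4 and Havcr1. Pdcd1lg2 and Cd274 missed the threshold in the 3 fits on TPM, at adjusted p between 0.0584 and 0.0996, and Icosl in the unfiltered TPM fit (0.0551). The cause was not tested.

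Replicates of the cell types share only a number, and with 2 pairs the deviations of same-numbered libraries correlated at -0.0347. With the replicate block, 1481 genes, 7 members and 8 listed genes passed. Of the genes that missed the threshold without the block, those past it with the block included Btla (adjusted p = 4.76e-07), Cd200 (0.000367), Cd276 (0.0278) and Rgmb (0.00815).

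With each replicate left out in turn, between 547 and 6241 genes, 6 and 9 members, and 3 and 19 listed genes passed. The counts were highest, 4064 and 6241 genes, without B1a replicate 1 or 2, when the spread came from the B2 pair alone and the lone B1a library was assumed to vary alike. Cd86 then passed at 0.89 without B1a replicate 2, and Havcr1 at -7.97, fitted against 0 counts. Of 11 other alternatives, Cmtm6 passed in 6 and Cd47 and Lrba in 8. Marchf1 turned to a log2 fold change of 0.13 without B1a replicate 1 (lowest -0.62), and Tnfrsf14 to 0.26 without B1a replicate 1 and to 0.24 without B2 replicate 2 (lowest -0.63).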
